A study of Mus musculus with 4 samples.

Results

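The collagen genes of the mouse were followed across the cell types of popliteal vessels, the vessels behind the knee. Members were all genes whose symbol is Col, a number, the letter a and a second number. This rule took 44 of the 32286 genes in the deposited single-cell count matrices, among them 11 fibrillar collagens, 6 chains of the basement membrane network, 6 chains of type VI, 9 fibril-associated collagens (FACITs), 3 chains of other networks, 4 transmembrane collagens, 2 multiplexins and 3 others. All mice were adult and carried the WT1GFPCre allele, in which the Wt1 locus drives Cre, together with Ai9-tdT, a tdTomato reporter at the Rosa26 locus that Cre switches on, so both alleles are shared by every library and no mouse without them was used. Evans blue dye was injected into the footpads before dissection. PLV replicates 1 and 2 were suspensions of popliteal lymphatic vessels, each pooled from 2 mice and digested for 30 min with collagenase I, Dispase II, DNAse and Liberase. The mixed library held popliteal lymphatic vessels and blood vessels (PLV and BV) of 1 pool of 2 mice, digested for 60 min with collagenase I and Dispase II. Vessel, digestion, mice and library run therefore differ together between the kinds of library and cannot be told apart.

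Cells were clustered in each library without the collagen genes and named from marker genes. The 6 classes were fibroblast-like, muscle-like, pericyte-like, blood endothelial-like, lymphatic endothelial-like and Schwann-like. PLV replicate 1 gave 388, 430, 74, 297, 192 and 234 cells of these classes in that order, PLV replicate 2 gave 88, 109, 27, 67, 70 and 53, and the mixed library gave 277, 316, 58, 174, 53 and 39. The marker genes of each class were present in it, except that the lymphatic endothelial-like cells of the mixed library had 0 UMIs of Lyve1 and Ccl21a, although the other 6 of 8 markers were at 20 CPM or more. The hashtag rows of the mixed library carry names that are not paired with the lymphatic and the blood vessels in the sources used here, so it was used as 1 sample. No cell barcode was shared between libraries (0 in each pair). Levels are CPM, the UMIs of a gene (molecules, counted once each by their 3′ end) scaled to an equal UMI total in every class and library. They were not divided by gene length, since each molecule is counted once. Where 3 values follow each other they belong to PLV replicate 1, then PLV replicate 2, then the mixed library. The samples of a kind are pools of different mice, and p-values measure only the spread between these 3 libraries.

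Collagens are secreted proteins in which chains wind around each other into a stiff helix. Fibrillar types I, III and V form the fibres that carry tension in the vessel wall, type IV forms the sheet of the basement membrane beneath endothelium, muscle and nerve sheath, and type VI forms beaded filaments between fibres and basement membrane. FACITs sit on the surface of fibrils, multiplexins sit at basement membranes, and transmembrane collagens stay anchored in the cell surface. Several chains are made by pairs of genes that lie head to head or side by side in the genome.

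The promoter stretches of the type IV pairs are shown because their levels are compared as pairs below, and those of Col1a2 and Col3a1 because these are the most abundant collagens of the PLV fibroblast-like cells. They are RefSeq sequences of build GRCm38.p6, printed 5′ to 3′ on the strand named, in lower case. Capitals mark the CCAAT box (letters CCAAT), the GC box (letters GGGCGG) and the TATA box (letters TATAAA), searched on both strands, so that their reverse complements are also in capitals. The stretches are cut to the bases outside annotated UTRs, so motifs in the rest of a 300-base window are not shown, among them the 2 CCAAT boxes of the Col1a2 window and the 1 GC box of the Col4a5 window. The 3 motifs do not overlap each other in what is shown. Col4a1 and Col4a2, the main type IV chains, lie on opposite strands of chromosome 8. The starts used for their windows are 21 bases apart, though the gene record places the Col4a1 start at 11312889 and not at 11312826. The windows around these starts share 78 bases. Because these windows lie in annotated UTRs, only the 30 bases around each of their CCAAT letters are given, chr8:11312761-11312790 and chr8:11312955-11312984, both on the plus strand.
Col4a1 and Col4a2, first stretch: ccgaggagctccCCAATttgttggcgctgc
Col4a1 and Col4a2, second stretch: ccccttggctcgCCAATcccgggcaagcac
Col4a5 and Col4a6 lie head to head on chromosome X with 1343 bases between the starts used for their windows, which share 0 bases. The gene records place these starts at 141475370 and 141474095, not at 141475419 and 141474076. The stretches are chrX:141475169-141475384 on the plus strand and chrX:141474077-141474326 on the minus strand.
Col4a5: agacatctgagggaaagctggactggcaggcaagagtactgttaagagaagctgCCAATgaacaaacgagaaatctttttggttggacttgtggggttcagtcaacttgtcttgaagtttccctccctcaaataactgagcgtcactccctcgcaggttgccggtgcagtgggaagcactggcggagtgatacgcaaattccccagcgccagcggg
Col4a6: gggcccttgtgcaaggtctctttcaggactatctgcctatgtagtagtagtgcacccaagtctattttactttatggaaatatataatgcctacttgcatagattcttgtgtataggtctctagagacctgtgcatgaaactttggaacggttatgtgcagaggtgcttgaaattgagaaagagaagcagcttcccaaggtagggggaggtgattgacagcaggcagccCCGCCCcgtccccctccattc
Col1a2 (chr6:4505370-4505492, plus strand) and Col3a1 (chr1:45311288-45311537, plus strand) are fibrillar genes on different chromosomes.
Col1a2: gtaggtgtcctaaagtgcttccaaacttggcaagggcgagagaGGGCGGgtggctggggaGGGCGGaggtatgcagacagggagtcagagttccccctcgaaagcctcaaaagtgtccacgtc
Col3a1: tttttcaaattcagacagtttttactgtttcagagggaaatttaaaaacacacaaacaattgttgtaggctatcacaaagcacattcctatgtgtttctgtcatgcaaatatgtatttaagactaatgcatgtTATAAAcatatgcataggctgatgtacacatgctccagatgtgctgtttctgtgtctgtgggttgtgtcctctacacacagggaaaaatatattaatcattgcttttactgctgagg
Over the 27025 windows of 300 bases in the table, the CCAAT box was found in 37.9%, the GC box in 35.9% and the TATA box in 14.2%. Of the 35 collagen genes with a window, 34.3% held the CCAAT box, 62.9% the GC box and 14.3% the TATA box. A match is a description of these letters and not a mapped site. The other 9 collagen genes, Col1a1, Col5a2, Col12a1 and Col14a1 among them, had no window in the table.

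Fibroblast-like cells gave the largest share of their UMIs to collagen genes in every library. The 44 genes together took 3.04%, 2.00% and 10.8% of fibroblast-like UMIs. Pericyte-like cells followed in both PLV libraries, with 0.846% and 0.603% and with 0.754% in the mixed library, where Schwann-like cells reached 0.771%. Schwann-like cells of the PLV libraries gave 0.402% and 0.442%, muscle-like cells 0.333%, 0.327% and 0.727%, and blood endothelial-like cells 0.238%, 0.226% and 0.3004%. Lymphatic endothelial-like cells were lowest, at 0.0580%, 0.0565% and 0.0664%. Immune cells, which should make no fibril collagen, gave 0.00536%, 0.00302% and 0.0171%. In the mixed library, 185412 near-empty droplets (fewer than 50 UMIs each) gave 1.18%, while its immune cells stayed below all 6 classes.

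**Figure D1:**
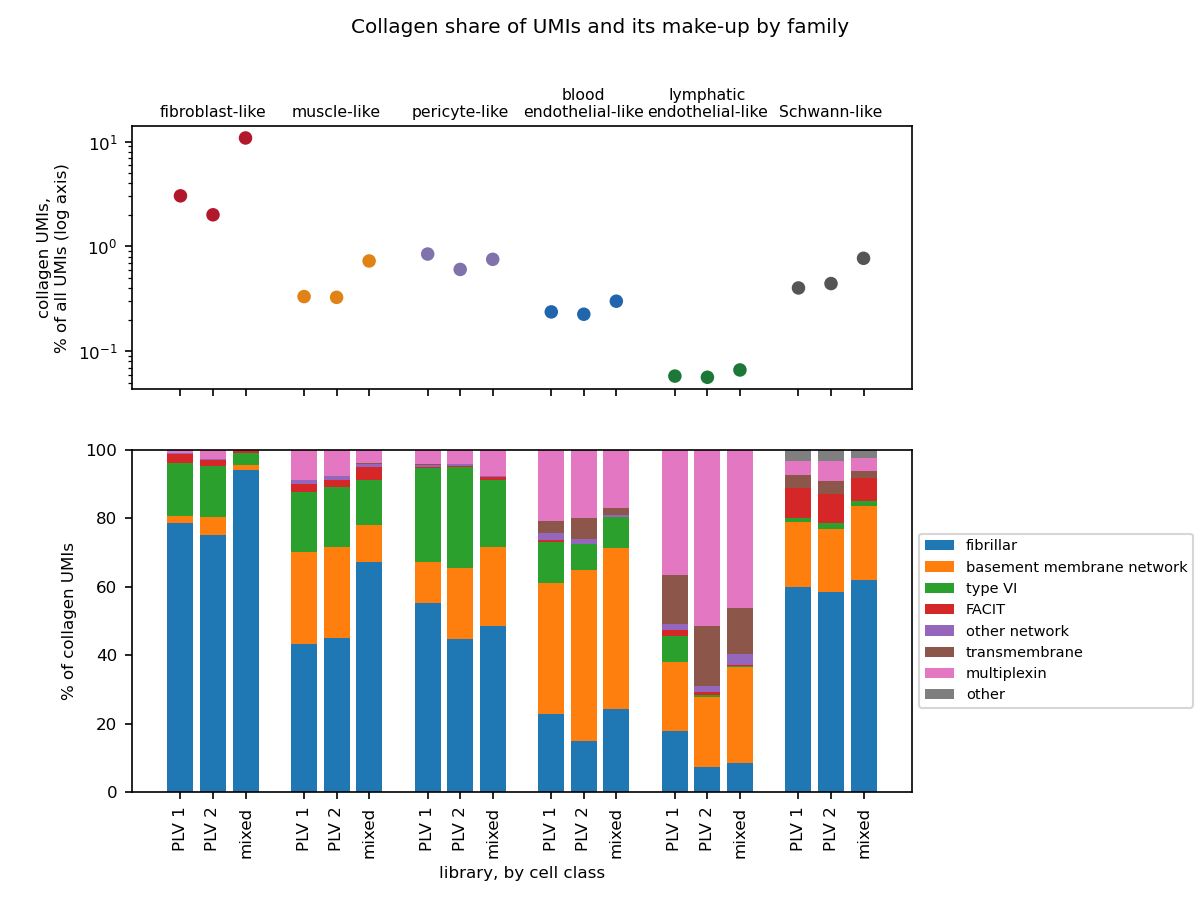
Share of all UMIs that came from the 44 collagen genes (percent, log axis) in each class and library, and the make-up of those collagen UMIs by family (percent of collagen UMIs). Points and bars are single libraries. Fibroblast-like cells are highest in all 3 libraries, and the fibrillar share is highest in them and lowest in lymphatic endothelial-like cells.

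The make-up of the collagen UMIs also differed between classes. Fibrillar genes made up 78.6%, 74.98% and 94.2% of fibroblast-like collagen UMIs. In blood endothelial-like cells the basement membrane chains were the largest family, with 38.5%, 49.97% and 46.8%. Lymphatic endothelial-like cells gave 36.5%, 51.3% and 46.4% of their collagen UMIs to the 2 multiplexins, Col15a1 and Col18a1. Type VI held 27.2%, 29.5% and 19.8% in pericyte-like cells and 0.999%, 1.74% and 1.38% in Schwann-like cells. The summed shares are descriptions and carry no test.

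**Figure D2:**
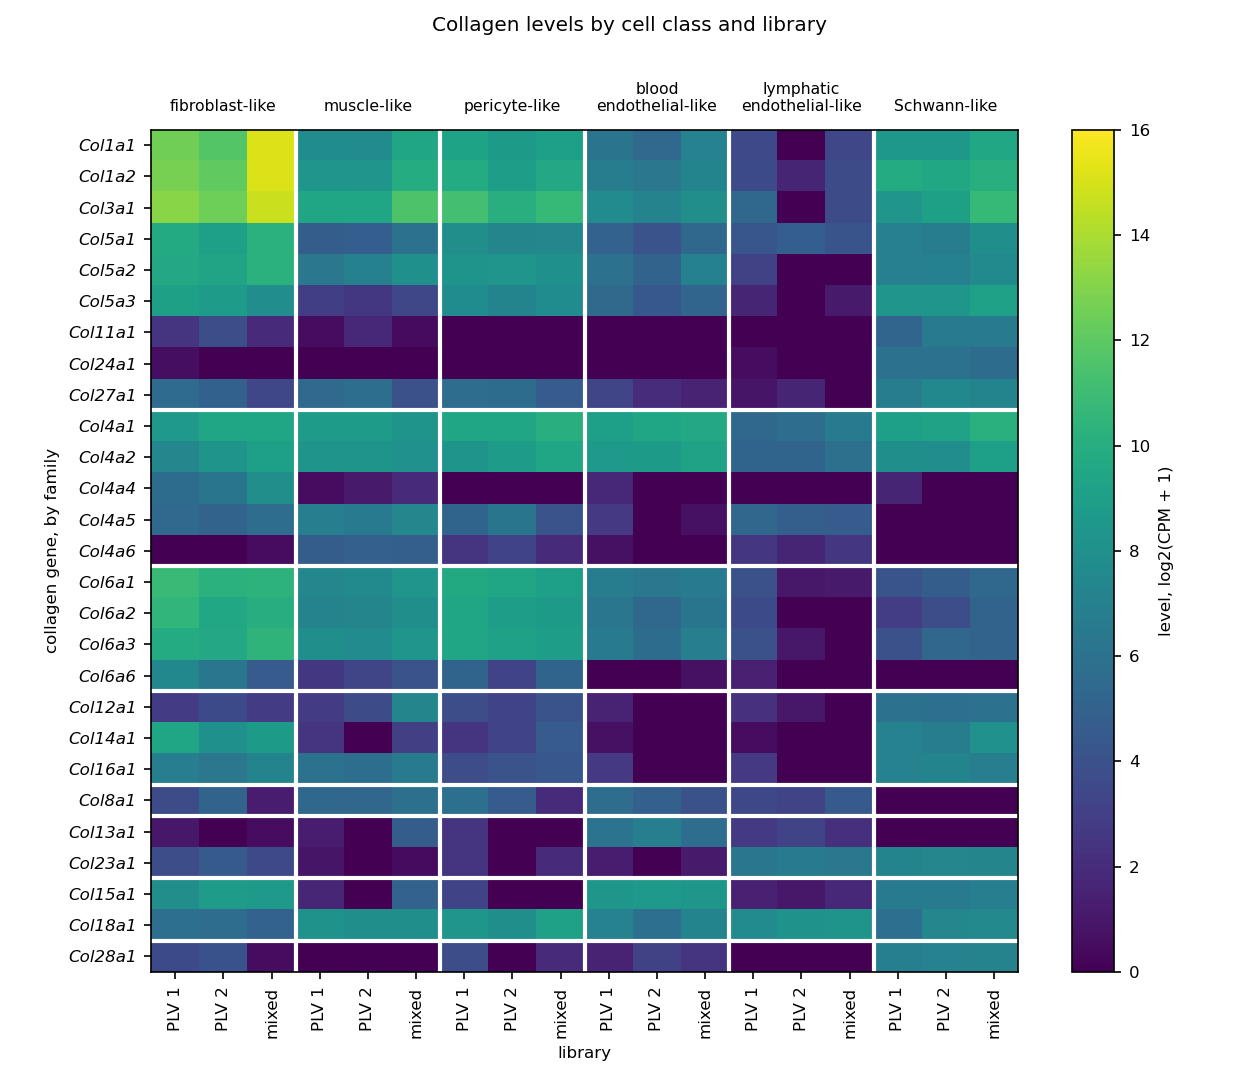
Level of the 27 collagen genes that reached 20 CPM in at least 1 class of each library, as log2(CPM + 1), in the 18 sums of 6 classes and 3 libraries. Rows are genes grouped by family and each column is 1 library of 1 class. Type I and III rows and Col6a1 are brightest in fibroblast-like cells, Col4a5 and Col4a6 in muscle-like cells and Col24a1, Col28a1 and Col23a1 in Schwann-like cells.

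Of the 44 genes, 27 reached 20 CPM in at least 1 class in each library, and 18 of these 27 had their highest level in the same class in all 3 libraries. That class was fibroblast-like for 10 genes, Schwann-like for 5, muscle-like for 2, and blood endothelial-like for 1, Col13a1. No gene had it in pericyte-like or lymphatic endothelial-like cells in all 3 libraries. The remaining 17 genes ranged from 0 to 813 UMIs over all kept cells and are given at the end.

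Class differences were tested with edgeR's quasi-likelihood test on the 18 sums, with library as a block and p-values adjusted by Benjamini-Hochberg over the 10520 genes that passed a filter on low counts. Each class was set against the mean of the log2 levels of the other 5, so a gene can stand above that mean because 1 other class is very low. The filter kept 28 collagens, the 27 and Col6a5, and a gene that passed through 1 high class was bound to differ. This also holds for the p-value of any single gene that is high in 1 class. No p-value of a class against the others is given for Col4a6, Col6a5, Col6a6, Col11a1, Col24a1 and Col28a1. None is given for Col13a1 between the endothelial classes. Counts over the 28 are descriptions for the same reason, given beside the percentage of all tested genes called in the same direction. In fibroblast-like cells 22 of 28 were higher and 1 lower, against 23.3% and 11.9% of all genes (35.2% in either direction). Muscle-like cells had 11 higher and 3 lower (background 20.4% and 12.7%, together 33.1%). Pericyte-like cells had 12 higher and 1 lower (background 9.74% and 4.9%, together 14.6%). Schwann-like cells had 13 higher and 5 lower (background 16.3% and 16.6%, together 32.9%). Blood endothelial-like cells had 4 higher and 9 lower (background 18.4% and 10.5%, together 28.9%), and lymphatic endothelial-like cells 4 higher and 15 lower (background 19.6% and 13.5%, together 33.1%). The median log2 difference of the 28 genes was 3.60, 0.74, 0.99, 0.61, -2.01 and -3.48 in these classes in the order named, while the median of all genes lay between -0.12 and 0.06. With DESeq2 the split was 10 higher and 5 lower in muscle-like cells, and 2 higher and 19 lower in lymphatic endothelial-like cells. In pericyte-like cells it was 7 higher and 1 lower without PLV replicate 2, and the same without the library block.

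The fibrillar genes Col1a1 and Col1a2, the chains of type I collagen, were higher in fibroblast-like cells than in every other class. Col1a1 was at 5849, 3437 and 36394.5 CPM. Across the other 5 classes it ranged from 0 CPM in the lymphatic endothelial-like cells of PLV replicate 2 to 742 in the Schwann-like cells of the mixed library, so fibroblast-like sums did not overlap with any other. The log2 difference was 6.655 ± 0.31 (SE, adjusted p = 1.91e-12, 3 libraries). Col1a2 stood at 6751, 4345 and 36349 CPM (difference 6.27 ± 0.28, adjusted p = 1.13e-12). Immune cells had 3.25, 12.96 and 28.6 CPM of Col1a1, and the near-empty droplets of the mixed library 3625 CPM.

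Col3a1, the type III chain of stretchable tissues, was the most abundant collagen of the PLV fibroblast-like cells, at 9000 and 5591 CPM, and stood at 26579 CPM in the mixed library. It was also the most abundant collagen of pericyte-like cells (2347, 1104 and 1656 CPM) and of muscle-like cells (714, 714 and 2908 CPM). Against the mean of the others it was higher in fibroblast-like (5.35 ± 0.34, adjusted p = 2.24e-10), pericyte-like (1.51 ± 0.39, adjusted p = 0.0115) and muscle-like cells (1.15 ± 0.39, adjusted p = 0.028). The pericyte-like call was lost without PLV replicate 2 (adjusted p = 0.106) and without the library block (adjusted p = 0.179). The muscle-like call was lost without PLV replicate 2 (adjusted p = 0.116), without the mixed library (adjusted p = 0.0841), without the block (adjusted p = 0.0871) and with DESeq2 (adjusted p = 0.0998). In lymphatic endothelial-like cells it had 39.8, 0 and 12.1 CPM and was lower (-6.01 ± 0.65, adjusted p = 3.69e-07). The 0 in PLV replicate 2 allows up to 3.21 CPM (3 counts, counting error only). Muscle markers summed to 1380 CPM in the lymphatic endothelial-like cells of PLV replicate 1 against 246 and 152 in the other libraries, and their part in the fibril collagen there was not tested.

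Type V chains, which set the width of type I fibrils, were split between classes. Col5a1 and Col5a2 were highest in fibroblast-like cells, with 881, 516 and 1195 CPM and with 802, 651 and 1181 CPM. Col5a3 had 534, 438 and 224 CPM in fibroblast-like cells and 345, 339 and 563 in Schwann-like cells, so the 2 classes overlapped. It was higher than the mean of the others in fibroblast-like (3.93 ± 0.20, adjusted p = 4.37e-12), Schwann-like (3.56 ± 0.23, adjusted p = 1.99e-10) and pericyte-like cells (2.25 ± 0.25, adjusted p = 2.01e-06). Muscle-like cells had 6.70, 5.11 and 9.73 CPM of Col5a3 against 222, 147 and 220 in pericyte-like cells, a log2 difference of -4.50 ± 0.36 (adjusted p = 1.13e-07).

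A further 3 fibrillar genes were highest in Schwann-like cells. Col24a1 gave 63.4, 64.0 and 48.9 CPM there, from 30, 10 and 6 UMIs, and 1 UMI at most in any other sum. Its fitted log2 difference of 8.14 rests on classes at or near 0 and so depends on the prior count. Col11a1, known from cartilage, had 35.9, 96.0 and 97.9 CPM in Schwann-like cells and at most 13.3 CPM in the sums of the other 5 classes, a fitted log2 difference of 7.23 ± 0.58. Col27a1 had 108, 179 and 147 CPM in Schwann-like cells (3.41 ± 0.32, adjusted p = 5e-08), against 43.3, 54.9 and 14.6 CPM in muscle-like cells.

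The 3 chains of common type VI collagen, Col6a1, Col6a2 and Col6a3, were highest in fibroblast-like cells and next highest in pericyte-like cells. Col6a1 had 1803, 1175 and 1316 CPM in fibroblast-like cells and 834, 719 and 524 in pericyte-like cells. Both classes lay above the mean of the others, by 4.53 ± 0.23 (adjusted p = 5.81e-12) and 2.75 ± 0.26 (adjusted p = 2.56e-07). The 8 fibroblast markers summed to 882, 139 and 326 CPM in pericyte-like cells against 22493 to 28628 in fibroblast-like cells. In pericyte-like cells 6, 2 and 3 of the 8 reached 20 CPM. None was at 0 in PLV replicate 1, while Pdgfra, Lum, Pi16, Clec3b and Serpinf1 were at 0 in PLV replicate 2 and Pdgfra, Lum and Pi16 in the mixed library. Their part in the type VI values was not tested. Schwann-like cells were low, with 16.9, 25.6 and 40.8 CPM of Col6a1 (-3.04 ± 0.49, adjusted p = 5.73e-05). Lymphatic endothelial-like cells had 14.4, 1.07 and 1.21 CPM (-4.90 ± 0.43, adjusted p = 1.9e-08).

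Col6a6 and Col6a5, alternative type VI chains, varied between the libraries in fibroblast-like cells. Col6a6 was at 178 and 75.3 CPM there and at 22.7 in the mixed library, where pericyte-like cells had 35.3. Col6a5 was at 350 and 157 CPM and at 8.51 in the mixed library, below the 15.8 CPM of its muscle-like cells. Over the 3 libraries the fitted log2 difference of fibroblast-like cells from the mean of the others was 5.875 ± 0.55 for Col6a6 and 5.78 ± 0.58 for Col6a5.

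Basement membrane chains Col4a1 and Col4a2 were broadly shared. Col4a1 stayed between 313 and 1134 CPM in all sums of 5 classes, and those classes overlapped. Only lymphatic endothelial-like cells stood apart, at 40.7, 52.4 and 99.0 CPM (-3.37 ± 0.26, adjusted p = 2.44e-09). Blood endothelial-like cells had 518, 700 and 818 CPM, and the lymphatic class lay below them by 3.48 log2 units (SE 0.28, adjusted p = 2.31e-08). Col4a2 had 34.1, 34.3 and 59.1 CPM in lymphatic and 385, 427 and 588 CPM in blood endothelial-like cells.

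The remaining type IV chains differed in how many classes held them. Col4a5 and Col4a6, partners in the basement membrane of smooth muscle, were highest in muscle-like cells. Col4a5 had 116, 90.7 and 167 CPM in muscle-like cells, 34.8, 73.6 and 16.3 in pericyte-like cells, 43.8, 33.2 and 50.6 in fibroblast-like cells (2.72 ± 0.48 above the mean of the others, adjusted p = 0.000209) and 0 UMIs in all 3 Schwann-like sums, which allows up to 6.34, 19.2 and 24.5 CPM. Muscle-like cells were above pericyte-like cells by 2.13 ± 0.47 (adjusted p = 0.00506), a call that was lost at a Leiden resolution of 0.5 (adjusted p = 0.156). Col4a6 had 25.5, 29.4 and 27.2 CPM in muscle-like cells and at most 8.18 in any other sum, a fitted log2 difference of 5.16 ± 0.41. Lymphatic endothelial-like cells also held both, Col4a5 at 37.2, 27.8 and 24.1 CPM and Col4a6 at 4.81, 2.14 and 4.83 CPM, from 11, 2 and 4 UMIs, and both were higher there than in blood endothelial-like cells (3.69 ± 0.59, adjusted p = 0.000116, and 3.46 ± 0.88, adjusted p = 0.00719). The Col4a6 call in that pair was lost without PLV replicate 1 and without the mixed library (adjusted p up to 0.103). Col4a4, a chain best known from kidney, had 50.3, 73.0 and 240 CPM in fibroblast-like cells and at most 2.84 CPM in the sums of the other 5 classes.

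**Figure D3:**
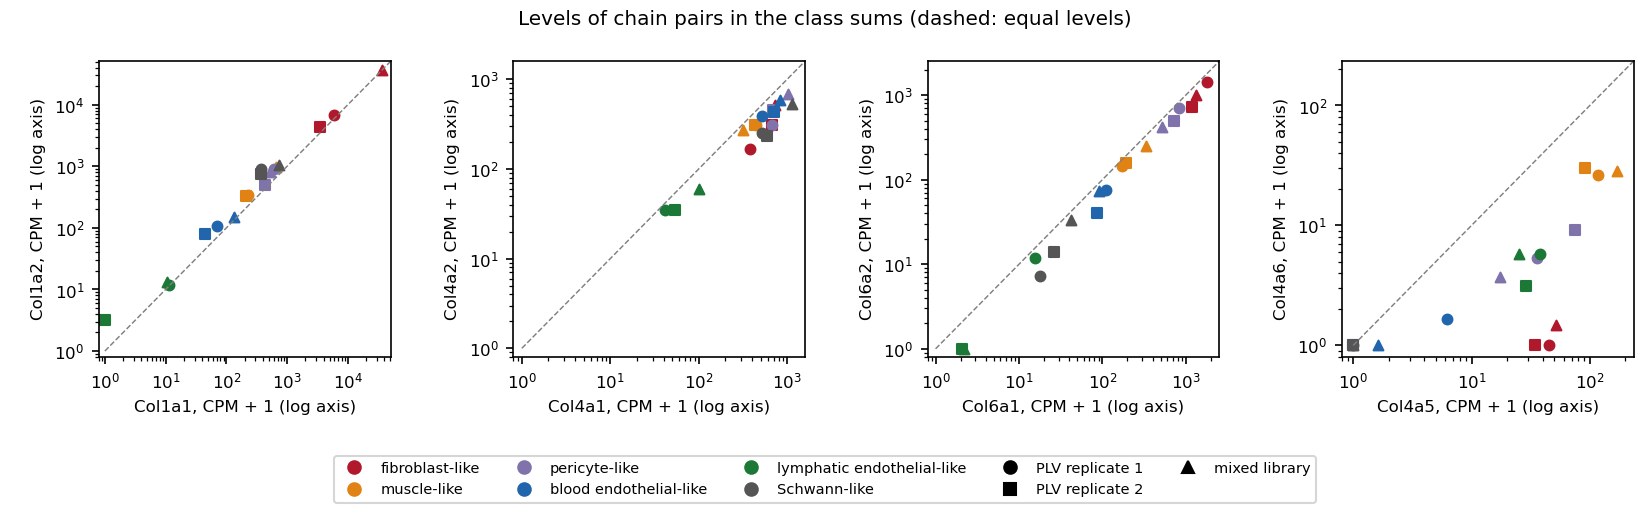
Levels of 4 pairs of collagen chains, CPM + 1 of the first gene (horizontal, log axis) against CPM + 1 of the second (vertical, log axis), in the 18 sums of 6 classes and 3 libraries. Colours are classes, symbols are libraries and the dashed line marks equal levels. Col6a1 with Col6a2 and Col1a1 with Col1a2 lie close to a line, while Col4a6 is at or near 0 in the fibroblast-like sums, where Col4a5 is at 33.2 to 50.6 CPM.

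Chain pairs varied together to different degrees across the 18 sums, which share 3 libraries and differ in depth. Pearson's r of log2(CPM + 1) was 0.996 for Col6a1 with Col6a2, 0.994 for Col1a1 with Col1a2 and 0.969 for Col4a1 with Col4a2. In counts the ratio of Col1a1 to Col1a2 ran from 0.413 to 1.00 with a median of 0.676, over the 15 sums where either reached 20 CPM. Col4a1 exceeded Col4a2 in all 18 sums, by 1.16 to 2.56 times, and Col6a1 exceeded Col6a2 in the 14 sums with such a level, by 1.18 to 2.16 times. The head to head pair Col4a5 and Col4a6, with r of 0.750, had a ratio from 3.09 to 107, the highest in fibroblast-like cells of the mixed library, where Col4a6 had 1 UMI and Col4a5 107. Col4a3, which lies beside Col4a4 on chromosome 1, had 6.49, 13.3 and 60.5 CPM in fibroblast-like cells, 0.129 to 0.252 of the Col4a4 level. These correlations are descriptions with no p.

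FACIT genes were found in fibroblast-like, Schwann-like and, for Col16a1 and Col12a1, also muscle-like cells. Col14a1, found on mature fibrils, had 686, 266 and 428 CPM in fibroblast-like cells and 133, 109 and 269 in Schwann-like cells, with at most 24.4 CPM in the other classes. It was higher in both, by 7.12 ± 0.24 (adjusted p = 3.52e-14) and 4.85 ± 0.34 (adjusted p = 8.09e-10). Col16a1 was spread over fibroblast-like (115, 79.7 and 148 CPM), Schwann-like (137, 147 and 114) and muscle-like cells (62.1, 53.7 and 94.9), and fibroblast-like sums overlapped with both of the others. It was higher in muscle-like than in pericyte-like cells (2.37 ± 0.60, adjusted p = 0.0122), which had 13.04, 16.35 and 19.00 CPM. That call was lost without PLV replicate 2 (adjusted p = 0.0809) and with DESeq2 (adjusted p = 0.0641). Col12a1 had 61.3, 57.6 and 65.2 CPM in Schwann-like cells (3.53 ± 0.77, adjusted p = 0.00131) and 6.25, 11.5 and 159 in muscle-like cells, where the mixed library stood apart.

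The multiplexins Col15a1 and Col18a1, whose cleaved ends are known as restin and endostatin, differed in opposite directions between the endothelial classes. Col15a1 was at 357, 385 and 357 CPM in blood endothelial-like cells and at 239, 465 and 396 in fibroblast-like cells, which overlapped. Lymphatic endothelial-like cells had 1.75, 1.07 and 2.41 CPM, a log2 difference from the blood endothelial class of -7.58 ± 0.71 (adjusted p = 1.33e-07), from 4, 1 and 2 UMIs. Col18a1 in contrast was at 210, 289 and 305 CPM in lymphatic and at 133, 56.8 and 148 CPM in blood endothelial-like cells, with no overlap (1.23 ± 0.32, adjusted p = 0.00815). Without PLV replicate 2 that difference was 0.86 and was not called (adjusted p = 0.177). Pericyte-like (335, 245 and 581 CPM) and muscle-like cells (290, 248 and 246 CPM) held it at similar or higher levels. Fibroblast-like cells, at 56.3, 50.9 and 31.7 CPM, were lower than the mean of the others (-1.88 ± 0.31, adjusted p = 5.95e-05), the only collagen of the 28 called lower in them.

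The transmembrane collagens Col13a1 and Col23a1 separated the endothelial classes. Col13a1 had 67.4, 115 and 51.4 CPM in blood endothelial-like cells and 5.69, 8.56 and 3.62 in lymphatic ones (fitted log2 difference -3.58 ± 0.68). Col23a1 had 76.6, 91.0 and 84.5 CPM in lymphatic endothelial-like cells against 1.296, 0 and 1.27 in blood ones (6.12 ± 0.38, adjusted p = 6.98e-10), and was higher still by value in Schwann-like cells, at 150, 166 and 163 CPM. At least 1 Col23a1 UMI was found in 60 of 192, 35 of 70 and 20 of 53 lymphatic endothelial-like cells, against 2 of 297, 0 of 67 and 2 of 174 blood endothelial-like cells and 0 of 212, 0 of 37 and 1 of 29 immune cells. Median depth was 3498, 6924.5 and 4959 UMIs in the lymphatic class, 3758, 8216 and 7443 in the blood endothelial class and 2258, 5139 and 5408 in immune cells. After thinning each cell to 1500 UMIs the shares were 8.78%, 7.69% and 10.4% of the 148, 65 and 48 lymphatic cells that were deep enough. No blood endothelial-like cell kept a Col23a1 UMI on thinning (0 of 224, 58 and 136 cells), which at that depth allows shares of cells with a UMI up to 1.63%, 6.16% and 2.68% (exact 95% binomial limits, counting error only) and sets no limit on cells that express the gene.

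Over the 28 tested collagens, lymphatic endothelial-like cells were above blood endothelial-like cells for 4 and below for 14, while 9.68% and 11.5% of all genes were called in these directions. The 4 were Col23a1, Col4a5, Col4a6 and Col18a1. The 14 held type I, III and VI chains, Col4a1, Col4a2, Col5a2, Col5a3, Col13a1, Col15a1, Col27a1 and Col28a1. The Col27a1 call was lost in 5 of 14 alternatives, among them without PLV replicate 1 (adjusted p = 0.614) and without PLV replicate 2 (adjusted p = 0.0667). The Col28a1 call was lost without either PLV library (adjusted p = 0.0872 without replicate 1 and 0.145 without replicate 2). Pericyte markers summed to 1804, 798 and 1029 CPM in blood endothelial-like cells and to 69.6, 9.63 and 7.24 CPM in lymphatic ones, and their part in the type I, III and VI values was not tested. Muscle-like against pericyte-like cells gave 3 higher (Col4a6, Col16a1 and Col4a5) and 4 lower (Col5a3, Col5a1, Col6a1 and Col6a2), against 6.9% and 5.23% of all genes. Without PLV replicate 2 this count of 7 was 4, as Col16a1, Col6a1 and Col6a2 were lost. Without the mixed library it was 11, although Col4a6 was lost, as it was without PLV replicate 1. At a Leiden resolution of 0.5 it was 4, as Col4a5, Col4a6, Col6a1 and Col6a2 were lost and Col14a1 was gained, and without the library block Col6a1 and Col6a2 were lost. With DESeq2 the count was 6, as Col16a1 and Col6a2 were lost and Col28a1 was gained. Muscle markers summed to 8822, 8560 and 13648 CPM in pericyte-like cells, against 11012, 9369 and 5578 CPM of pericyte markers there and 36009, 35846 and 42782 CPM of muscle markers in muscle-like cells. In the mixed library the pericyte-like cells thus held more of the muscle than of the pericyte list, and the part of this in the comparison was not tested. In PLV replicate 1 a cluster of 55 cells, with 6 of 9 muscle markers and 5 pericyte markers raised, was left unnamed. It was outside both classes, and the effect of leaving it out was not tested.

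Col8a1, a short-chain network collagen of vessel walls, and Col28a1, a collagen of peripheral nerve, complete the genes above 20 CPM. Col8a1 had 39.3, 38.3 and 58.8 CPM in muscle-like cells (2.95 ± 0.66, adjusted p = 0.00189) and 56.5, 24.5 and 2.71 in pericyte-like and 51.8, 28.4 and 14.6 in blood endothelial-like cells, both of which overlapped with it. It had 0 UMIs in all 3 Schwann-like sums. Col28a1 had 120, 134 and 139 CPM in Schwann-like cells and at most 15.5 in the sums of the other 5 classes, a fitted log2 difference of 6.57 ± 0.53. Perineurial-like clusters of 15 cells in PLV replicate 1 and 10 in the mixed library were not part of the 6 classes.

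Clusters within the classes were compared by value alone, because a cluster against the rest of the same cells is no test. They were named for a leading gene and matched between libraries by hand after their genes were seen. Fibroblast-like cells held a Pi16 and a Cxcl14 cluster in all 3 libraries, an Apod cluster in both PLV libraries, a Myoc cluster in PLV replicate 1 and an Itgbl1 cluster in the mixed library. In PLV replicate 2, 20 of 88 fibroblast-like cells were in none of these. The Pi16 clusters had the highest Pi16 level of each library (3482, 1194 and 534 CPM) but were not alike in other genes, with Dpp4 at 321, 255 and 32.7 CPM, Cxcl14 at 1.48, 99.5 and 572 CPM and Myoc at 626, 1300 and 136 CPM, so their match between the libraries is loose. Col14a1 was highest in the Pi16 cluster of every library, at 1153, 690 and 626 CPM, against 93.5, 10.0 and 211 in the Cxcl14 cluster and 0 in both Apod clusters. Col15a1 went the other way, with 1692 and 1398 CPM in the Apod clusters, 511, 440 and 464 in the Cxcl14 clusters and 0, 298 and 220 in the Pi16 clusters.

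The alternative type VI chains were highest in the Pi16 clusters of the PLV libraries. Col6a5 had 859 and 435 CPM in the Pi16 cluster of PLV replicates 1 and 2 and 0 in that of the mixed library, from 550919 UMIs, which allows up to 5.45 CPM (3 counts). The Myoc cluster had 104 CPM. Col6a6 had 398, 211 and 27.2 CPM in the Pi16 clusters, while the Cxcl14 cluster of the mixed library had 48.65 and the Myoc cluster 89.98. The Apod clusters also held Col8a1 (144 and 241 CPM), Col11a1 (77.4 and 145 CPM), Col28a1 (111 and 72.3 CPM) and Col26a1 (77.4 and 120 CPM), which were at 15.5 CPM or less in the other fibroblast-like clusters. Apod itself was at 60032 and 55135 CPM in them. The perineurial-like cluster of the mixed library, outside the fibroblast-like class, had Apod at 18789 CPM as its leading gene and held Col15a1 (981 CPM), Col8a1 (175 CPM), Col26a1 (140 CPM) and Col11a1 (123 CPM) as well. The fibroblast-like cells of PLV replicate 2 had perineurial markers at 483 CPM against 32.5 and 9.93 in the other libraries, and their part in the Apod values was not tested. The Itgbl1 cluster held Col4a4 at 429 CPM and Col4a3 at 122 CPM, against at most 109.5 and 14.5 CPM in the other fibroblast-like clusters. The perineurial-like cluster of PLV replicate 1 had Col4a4 at 219 CPM and Col4a3 at 85.6 CPM, from 23 and 9 UMIs. That of the mixed library had them at 70.0 and 17.5 CPM, from 4 and 1 UMIs.

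**Figure D4:**
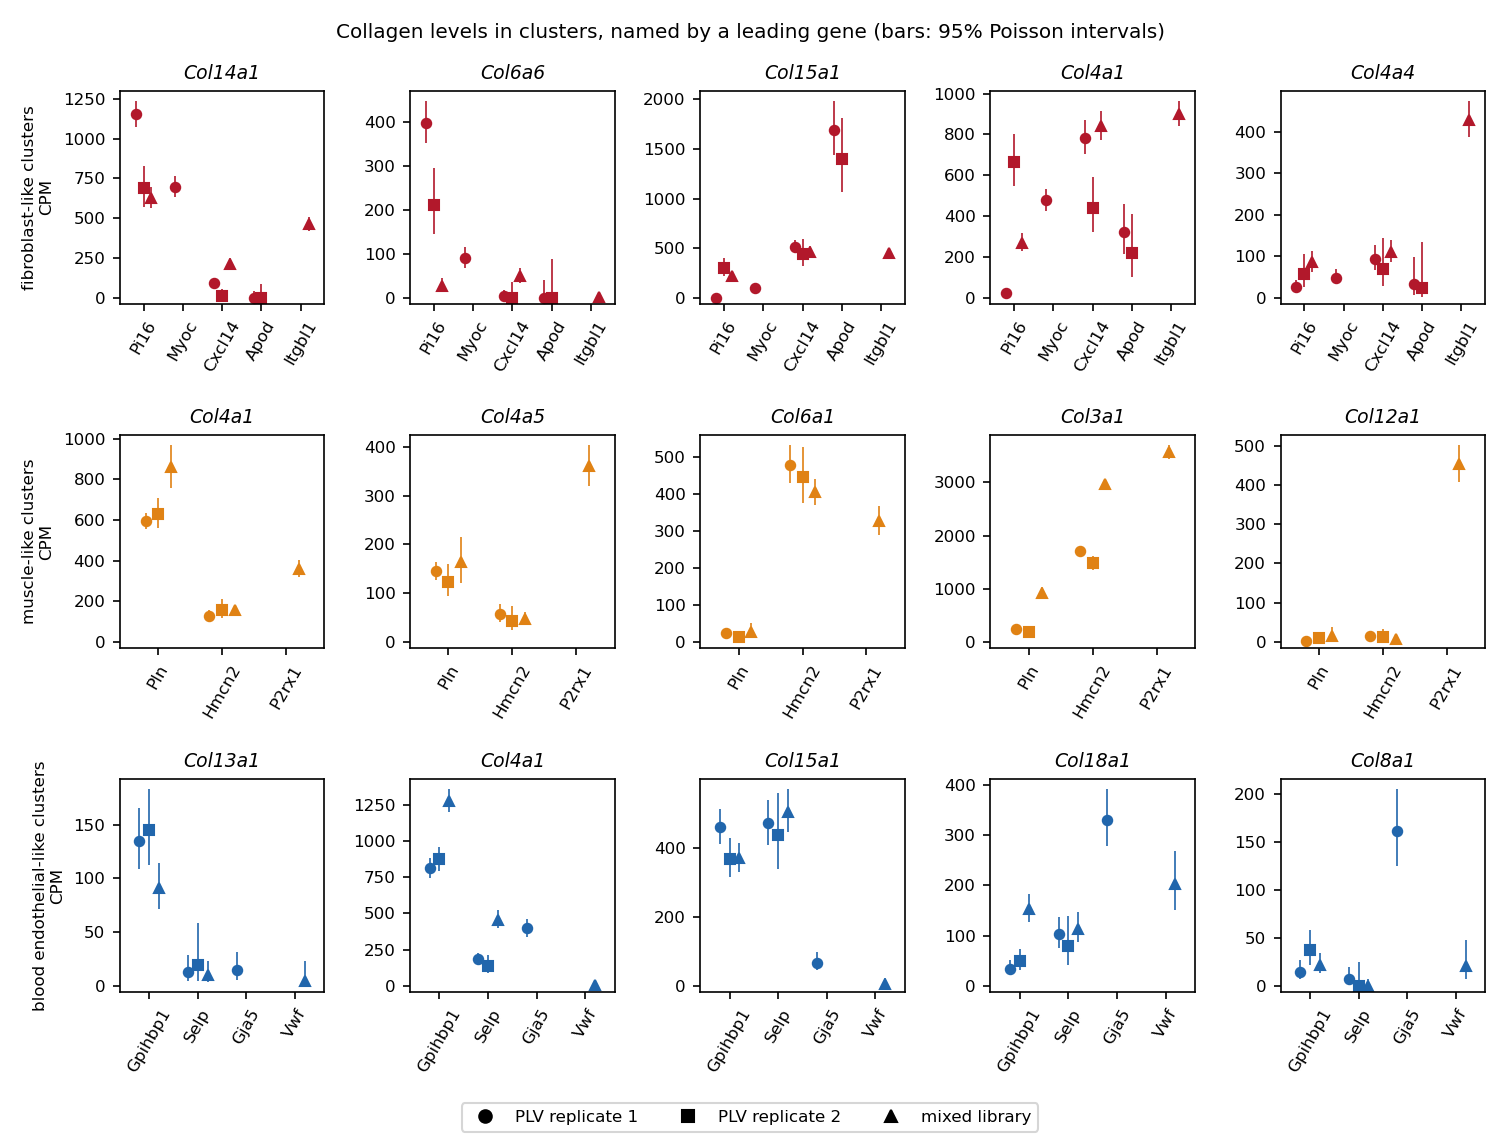
Levels (CPM) of 5 collagen genes each in the clusters of fibroblast-like (top), muscle-like (middle) and blood endothelial-like cells (bottom). Points are single libraries, with symbols for the library, and bars are 95% Poisson intervals that cover counting error only. Col15a1 is highest in the Apod clusters, Col6a1 is higher in the Hmcn2 than in the Pln clusters in each library, and Col13a1 is highest in the Gpihbp1 clusters.

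The kinds of muscle had distinct collagen profiles. Muscle-like cells led by Pln, the phospholamban gene, had Col4a1 at 592, 629 and 859 CPM, Col4a5 at 144.5, 124 and 163 CPM, Col18a1 at 373, 360 and 500 CPM and Col8a1 at 57.4, 60.7 and 115 CPM. Cells led by Hmcn2 had the same genes at 126, 158.5 and 154, at 56.7, 43.5 and 47.45, at 117.5, 87.0 and 121, and at 1.38, 6.22 and 0 CPM, with no overlap between the kinds. By value, Col6a1, Col6a2, Col6a3, Col3a1, Col5a1 and Col5a2 went the other way in each library, while Col5a3 was at 11.1, 0 and 9.79 CPM in the Hmcn2 kind and 4.62, 8.68 and 9.61 in the Pln kind. Col6a1 was at 480, 447 and 405 CPM in the Hmcn2 kind against 25.1, 13.02 and 25.6 in the Pln kind, and Col3a1 at 1700, 1482 and 2961 CPM against 244, 178 and 923. The 43 Pln cells of the mixed library also held Pi16 at 99.3, Myoc at 38.45 and Scara5 at 28.8 CPM. Each was at 0.66 CPM or less in the Pln cells of PLV. The part of this in the Col3a1 value was not tested. Col16a1 was at 138, 103 and 138 CPM in the Hmcn2 kind and 25.7, 19.5 and 22.4 in the Pln kind. The P2rx1 cluster was found in the mixed library only, where 74 cells had Col12a1 at 454 CPM, Col15a1 at 89.55 CPM, Col13a1 at 73.8 CPM and Col19a1 at 53.25 CPM. In the Pln and Hmcn2 kinds Col12a1 stayed at 16.02 CPM or less, Col15a1 at 6.91 or less and Col13a1 at 4.15 or less.

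Among blood endothelial-like cells, the Gpihbp1 cluster, named for a gene of capillary endothelium, held Col13a1 at 135, 145 and 91.1 CPM and Col4a1 at 813, 875 and 1278 CPM. Col15a1 was at 458.5, 368 and 369 CPM there and at 470, 438 and 503 CPM in the Selp cluster, and these overlapped. A Gja5 cluster of PLV replicate 1 had 162 CPM of Col8a1 and 331 of Col18a1, with 67.6 of Col15a1. A Vwf cluster of the mixed library had Col5a2 at 423 CPM and Col4a1 at 4.15 CPM, from 1 UMI. In PLV replicate 2 a cluster of 65 cells with a median of 1000 UMIs was left unnamed and outside the classes, and it shared 4 of its 10 leading genes with the Gja5 cluster (Cytl1, Gja5, Gkn3 and Mgp). It had Col18a1 at 208 CPM, Col8a1 at 64.9 CPM and Col15a1 at 38.95 CPM, from 16, 5 and 3 UMIs. Counted as blood endothelial-like, it left the Col18a1 difference of the lymphatic from the blood class called (1.15, adjusted p = 0.00917) and ended the Col4a6 call of that pair (adjusted p = 0.0626). The Col23a1 difference of that pair was then 4.997 (adjusted p = 7.74e-09), down from 6.115, with 64.9 CPM of Col23a1 in the unnamed cluster, from 5 UMIs.

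The mixed library was set against the PLV libraries within each class, with 12 coefficients and no block, so the lone mixed sum of a class is assumed to vary like the PLV sums. In fibroblast-like cells 8 of 28 collagens were higher and 5 lower in the mixed library, against 8.49% and 5.34% of all genes. Col1a1 was higher by 3.485 ± 0.46 on the log2 scale (adjusted p = 6.32e-05) and Col1a2 by 3.225 ± 0.40 (adjusted p = 3.24e-05). Col4a4 (2.56 ± 0.31), Col3a1 (2.38 ± 0.64), Col4a2 (1.65 ± 0.32), Col5a1 (1.28 ± 0.31), Col5a2 (1.21 ± 0.38) and Col16a1 (1.06 ± 0.32) were also higher, with adjusted p from 3.9e-05 to 0.0375. Lower in the mixed library were Col6a5 (-4.43 ± 0.51), Col28a1 (-3.94 ± 1.10), Col8a1 (-3.08 ± 0.82), Col6a6 (-2.05 ± 0.45) and Col27a1 (-1.625 ± 0.44). The PLV sums include the Apod clusters, while the 10 perineurial-like cells of the mixed library, which also held Apod, were left out of its sum. Those 10 cells had Col8a1 at 175 CPM and Col28a1 at 35.0 CPM, from 10 and 2 UMIs, so for these genes the classes do not hold the same cells in the libraries, and the part of this in the differences was not tested. Col1a1, Col1a2 and Col3a1 together made up 71.1% and 66.7% of the collagen UMIs of PLV fibroblast-like cells and 91.8% of those in the mixed library.

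These calls moved with the scaling and with the tool. The TMM factor, edgeR's correction for composition, was 0.658 for the mixed fibroblast-like sum and 0.969 and 0.905 for the PLV ones. With plain library sizes the median of all genes moved by -0.525, and the split of calls became 5 higher and 6 lower, as Col5a1, Col5a2 and Col16a1 were no longer called and Col5a3 was called lower. DESeq2, whose size factors moved that median by -0.027, called 5 higher and 1 lower, losing Col3a1, Col5a2 and Col16a1 among those higher and Col27a1 and Col28a1 among those lower, and it gave no adjusted p for Col6a6 and Col8a1. Col8a1 was also not called with at least 1000 UMIs per cell (adjusted p = 0.105). Among clusters found in all 3 libraries, which hold 62.9%, 61.4% and 52.3% of the fibroblast-like cells, 10 of the 27 tested were called and Col1a1, Col1a2, Col5a1 and Col5a2 were among them. Col16a1 (adjusted p = 0.526), Col28a1 (adjusted p = 0.3) and Col8a1 (adjusted p = 0.169) were not. Col8a1 changed sign there, to 4.85, from 3 UMIs in the mixed library and 0 in the PLV libraries. The Apod clusters had the highest Col8a1 and Col28a1 levels among the fibroblast-like clusters, and no fibroblast-like cluster of the mixed library was matched to them. These values rest on the loose match of the Pi16 clusters.

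**Figure D5:**
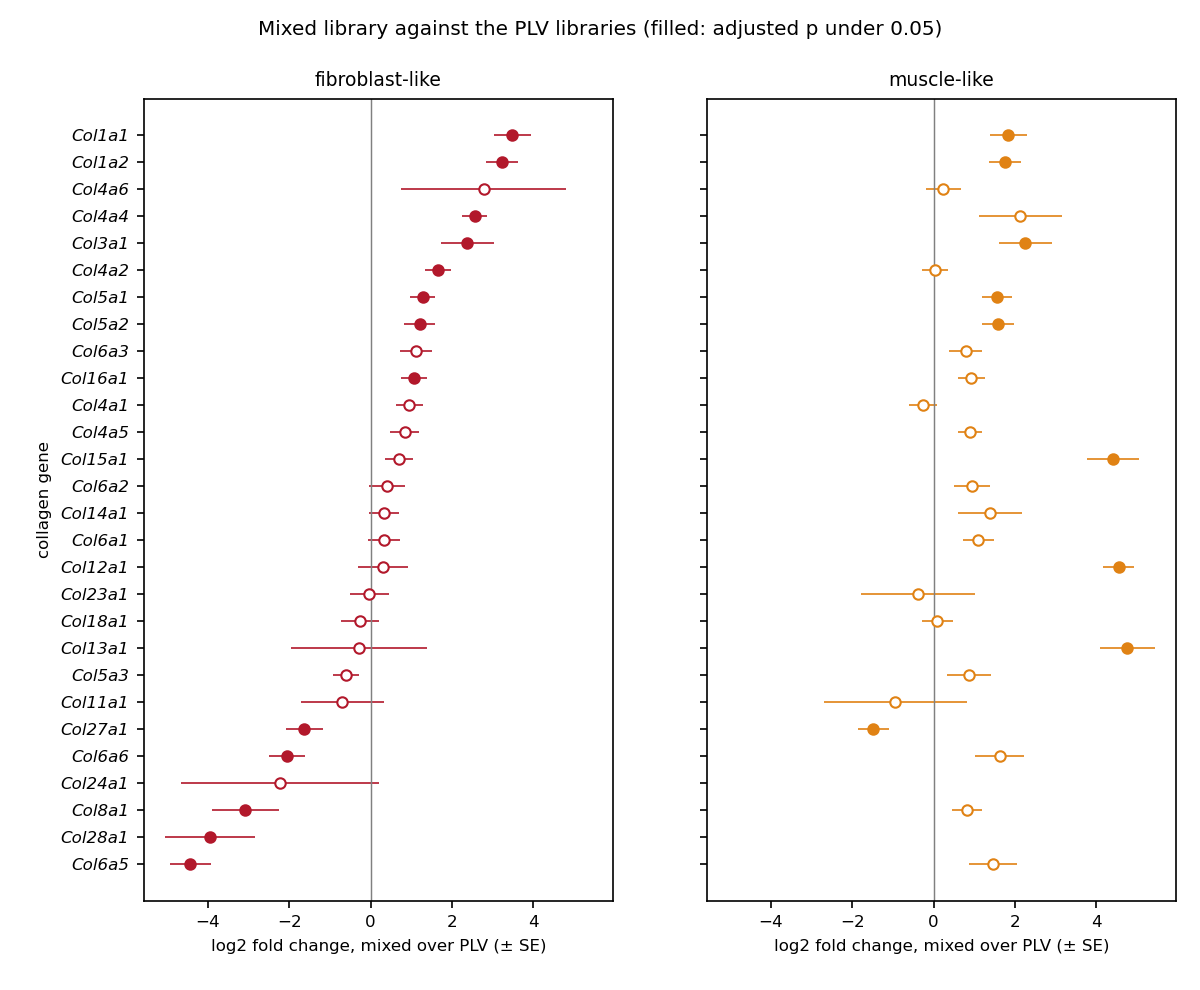
Log2 difference of the mixed library from the PLV libraries (points, with bars of 1 SE) for 28 collagen genes in fibroblast-like cells and those of them that could be fitted in muscle-like cells. Filled points passed an adjusted p of 0.05, and Col6a5 was added after its values were seen. Col1a1, Col1a2 and Col3a1 lie above 0 in both classes, Col12a1, Col13a1 and Col15a1 lie above 4 in muscle-like cells, and Col6a5 lies below -4 in fibroblast-like cells.

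In muscle-like cells 8 collagens were higher and 1 lower in the mixed library, against 3.01% and 2.8% of all genes (5.82% in either direction). Col13a1 (4.765 ± 0.67, adjusted p = 0.000436), Col12a1 (4.55 ± 0.38, adjusted p = 7.12e-07) and Col15a1 (4.41 ± 0.63, adjusted p = 0.000401) led. With only the Pln and Hmcn2 kinds, which hold all PLV muscle-like cells and 76.6% of those in the mixed library, these 3 differences were 0.43, 0.46 and 0.70 and were not called, and 5 collagens were. The Hmcn2 kind made up 141 of 430 and 56 of 109 of these cells in PLV and 199 of 242 in the mixed library, so the shared kinds are not in the same proportions. Col3a1 (2.26 ± 0.65), Col1a1 (1.84 ± 0.46), Col1a2 (1.75 ± 0.40), Col5a2 (1.58 ± 0.39) and Col5a1 (1.555 ± 0.36) were higher as well, and Col27a1 was lower (-1.48 ± 0.39). Col1a1, Col1a2, Col5a1 and Col5a2 were still called with the shared kinds alone, and DESeq2 called 4 collagens higher (Col1a1, Col1a2, Col12a1 and Col15a1) and 0 lower, losing Col5a1 (adjusted p = 0.0569) and Col5a2 (adjusted p = 0.113), with no adjusted p for Col13a1. The Col3a1 call was lost in 4 of 11 alternatives (adjusted p up to 0.598) and the Col27a1 call in 3 of 11 (adjusted p up to 0.182), with DESeq2 and with the shared kinds in both cases. Fibroblast markers summed to 743 CPM in the mixed muscle-like cells and to 308 and 241 CPM in the PLV ones. Of the 8 markers, 4 were at 20 CPM or more in the mixed library and 4 and 3 in PLV replicates 1 and 2. Their part in the type I, III and V values was not tested.

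The difference between these effects was tested directly. The log2 difference of the mixed library from PLV was lower in fibroblast-like than in muscle-like cells for 5 of 28 collagens and higher for 0, against 0.875% and 0.409% of all genes (1.28% in either direction). These were Col6a5, Col12a1, Col8a1, Col15a1 and Col6a6. For Col1a1 the difference of 1.64 ± 0.68 did not pass (adjusted p = 0.336). Among the other 4 classes edgeR called 0 collagens between the mixed and PLV libraries, while it called 0.0285%, 0.808%, 0.247% and 0.019% of all genes in pericyte-like, blood endothelial-like, lymphatic endothelial-like and Schwann-like cells (0.019%, 0.485%, 0.162% and 0.00951% higher and 0.00951%, 0.323%, 0.0856% and 0.00951% lower). At an unadjusted p under 0.05 edgeR had 4, 5, 7 and 7 of the 28 collagens in these classes in the same order, beside 10.9%, 13.1%, 9.55% and 9.46% of all genes at that threshold. DESeq2 also called 0, but gave no adjusted p for 14 of the 28 in pericyte-like, lymphatic endothelial-like and Schwann-like cells and for 3 in blood endothelial-like cells.

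Genes that make, export and assemble collagen were taken from lists chosen for their function. Of 17 tested genes for modifying and folding the chains inside the cell, 14 were higher in fibroblast-like cells and 1, P3h2, was lower. Serpinh1, the collagen chaperone HSP47, had 1150, 713 and 1117 CPM in fibroblast-like cells (2.42 on the log2 scale above the mean of the others) and 141, 106 and 156 CPM in lymphatic endothelial-like cells. P3h2, a prolyl hydroxylase that acts on type IV collagen, had 0, 0 and 1 UMIs in fibroblast-like cells and 78.2, 65.4 and 51.6 CPM in pericyte-like cells. All 10 tested genes for processing and cross-linking were higher in fibroblast-like cells, among them Pcolce2, an enhancer of procollagen cleavage, at 918, 507 and 646 CPM and Loxl1, a cross-linking oxidase, at 476, 248 and 130 CPM. Of 5 secretion genes 3 were higher, with Creb3l1 at 135, 93.0 and 190 CPM. These shares stand beside the 23.3% of all genes called higher and the 11.9% called lower in that class.

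Collagen receptors divided between the classes. Of 8 tested, 4 were higher in fibroblast-like cells (Ddr2, Itga11, Mrc2 and Itga2) and 3 lower (Itgb1, Itga1 and Ddr1), beside the same 23.3% and 11.9% of all genes. Itga1, the integrin chain that pairs with Itgb1 to bind type IV collagen, had 684, 889 and 724 CPM in muscle-like cells and 10.3, 70.8 and 16.5 in fibroblast-like cells. Ddr2, a receptor for fibrillar collagen, had 369, 398 and 170 CPM in fibroblast-like cells and 0 in all Schwann-like sums. In the mixed library fibroblast-like cells had 5 of 17 modifying genes higher and 2 lower, and 3 of 10 processing genes higher (Pcolce, Adamts2 and Lox) and 2 lower (Loxl1 and Pxdn), against the 8.49% and 5.34% given above.

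The remaining 17 collagens did not reach 20 CPM in a class of every library. Col6a5 (813 UMIs), Col17a1 (213), Col4a3 (167), Col19a1 (68) and Col11a2 (52) had the most UMIs. Col17a1, a collagen of hemidesmosomes, had 16.2, 25.2 and 8.25 CPM in blood endothelial-like cells and 1 UMI at most in any other class sum. In PLV replicate 1, 156 of its 182 UMIs came from a cluster of 5 keratinocyte-like cells outside the 6 classes. Col11a2 was highest in lymphatic endothelial-like cells in all 3 libraries, at 12.3, 9.63 and 3.62 CPM. Col20a1 (31 UMIs), Col26a1 (29), Col7a1 (25), Col9a3 (19), Col6a4 (13), Col8a2 (11), Col9a2 (8), Col25a1 (3), Col9a1 (2) and Col10a1 (2) gave few molecules, and Col2a1 and Col22a1 had 0 in the kept cells of all libraries. Among the 6 classes, Col7a1, Col9a3 and Col20a1 were highest in Schwann-like cells in each library, from 2 to 6 UMIs per sum. The keratinocyte-like cluster held 8 of the 14 Col7a1 UMIs of PLV replicate 1, all in 1 cell, at 56.1 CPM.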

How the data were processed

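Droplet 3′ single-cell RNA was measured in 2 PLV libraries and 1 mixed library. Per the file headers, the deposited counts (UMIs per gene and barcode, not normalized) came from Cell Ranger 6.1.2 for PLV and Cell Ranger 4 for the mixed library; GRCm38 and Seurat are named in the submitters' processing notes. Barcodes were kept with at least 500 UMIs, 300 genes, at most 15% mitochondrial and 20% haemoglobin UMIs, after removing 8, 3 and 3 predicted doublets. This left 1911, 516 and 994 cells with 9582341, 3390010 and 7770796 UMIs. Each library was clustered alone (scanpy 1.11.5, leidenalg 0.10.2, 2000 variable genes, 50 components, 15 neighbours, resolution 1) without collagen genes. Counts were summed per class and library and tested with edgeR 4.0.16 in R 4.3.3 (quasi-likelihood, TMM, library block, Benjamini-Hochberg at 0.05). DESeq2 1.42.0, other filters, resolutions, scalings and left-out libraries were alternatives. SE is the log2 difference divided by the root of F. The code was tested on simulated data. Genes were named where a collagen reached 20 CPM in a class of every library. Fitted differences of genes at or near 0 in other classes depend on the prior count and are no bound. Members, markers and lists were chosen with earlier results of these data known, and cluster matching, the shared-cluster, unnamed-cluster and plain-library-size alternatives after seeing the data. Clusters within Schwann-like cells are not reported here.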

Additional observations from a re-analysis of the deposited data

Results flagged for a closer look

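For 5 collagens the difference between the mixed and the PLV libraries was not the same in fibroblast-like as in muscle-like cells, by edgeR's test of the fibroblast-like minus the muscle-like log2 difference. It was -5.9 for Col6a5 (SE 0.78, adjusted p = 0.000406), -4.237 for Col12a1 (SE 0.75, adjusted p = 0.00612), -3.711 for Col15a1 (SE 0.76, adjusted p = 0.0133), -3.677 for Col6a6 (SE 0.74, adjusted p = 0.0149) and -3.903 for Col8a1 (SE 0.90, adjusted p = 0.0344). Each arm rests on 2 PLV libraries and 1 mixed library. In clusters found in all 3 libraries the value was -5.94 for Col6a5 (adjusted p = 0.000108), 0.38 for Col12a1 and 0.23 for Col15a1 (adjusted p = 1 for each), -2.73 for Col6a6 (adjusted p = 0.0983) and 5.51 for Col8a1 (adjusted p = 0.354). DESeq2 gave adjusted p of 0.000236, 0.0188, 0.0236, 0.248 and 0.11 for Col6a5, Col12a1, Col15a1, Col6a6 and Col8a1. With at least 1000 UMIs per cell the adjusted p of Col8a1 was 0.117, and with at most 10% mitochondrial UMIs it was 0.0519.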

How the results depend on the processing

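Of 956 tested alternative values of 73 single-gene results, 907 kept their direction and side of the threshold, 48 kept the direction but lost the call, and 1 changed sign: in shared clusters Col8a1 was at 4.853 in mixed against PLV fibroblast-like cells (adjusted p = 0.169). A further 3 DESeq2 values (Col6a6 and Col8a1 in fibroblast-like and Col13a1 in muscle-like cells, mixed against PLV) had no adjusted p and are not counted. Differences of the mixed library from 1 PLV library alone, 42 in all and untested, kept their direction. Of 134 alternative counts of called collagens, 123 stayed within 1.5 times. With no filter on low counts, muscle-like cells had 22 called (14 with the filter), Schwann-like cells 28 (18) and muscle-like against pericyte-like cells 16 (7). Without the library block pericyte-like cells had 8 (13), and at a Leiden resolution of 0.5 muscle-like against pericyte-like cells had 4 (7). For mixed against PLV, DESeq2 gave 6 in fibroblast-like (13) and 4 in muscle-like cells (9), where shared clusters gave 5. The causes were not tested. Leaving out 1 library gave 20 to 22 in fibroblast-like, 13 to 16 in muscle-like, 8 to 15 in pericyte-like, 11 to 16 in blood endothelial-like, 14 to 19 in lymphatic endothelial-like and 13 to 19 in Schwann-like cells, 15 to 19 for lymphatic against blood endothelial-like and 4 to 11 for muscle-like against pericyte-like cells. The low pericyte-like count of 8 was without PLV replicate 2. Leaving out a PLV library from the mixed comparison leaves no residual degrees of freedom, so no count was made. No pairing of the mixed with the PLV libraries was possible, because they are pools of different mice. Plain library sizes moved the all-gene median by -0.312 in fibroblast-like and 0.21 in pericyte-like cells, and by -0.221 for mixed against PLV in muscle-like cells. Thinning lowered 74 of 81 shares of cells with a UMI. Depth limits sums of few cells, where 1 UMI is worth several CPM.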

Other observations

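Perineurial-like clusters, kept outside the 6 classes, held collagens in 2 libraries. The 15 cells of PLV replicate 1 had Col1a2 at 1066 CPM, Col4a1 at 343 CPM, Col6a3 at 276 CPM and Col4a4 at 219 CPM. The 10 cells of the mixed library had Col3a1 at 12835 CPM, Col1a2 at 10927 CPM, Col15a1 at 981 CPM and Col4a1 at 630 CPM, with Col8a1 at 175 CPM, Col26a1 at 140 CPM and Col11a1 at 123 CPM. Apod was at 1912.5 CPM in the former and 18789 CPM in the latter. These are values of single clusters with no replicate.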
